A study of Mus musculus with 41 samples.

Results

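Microglia and macrophage genes are described here across a mouse model of histone H3.3 K27M brainstem glioma. The set was a fixed list of 29 gene symbols, matched exactly to the gene column of the deposited expression table, and 29 of 29 were found among its 34591 entries. Expression was measured by bulk RNA sequencing in 41 libraries, 29 from brainstem tumors and 12 from neurospheres, that is, neural precursor cells grown as free-floating spheres. Values are FPKM, fragment counts scaled for transcript length and library size, so levels of different genes can be compared per length. The model was made to compare tumors and cells carrying an H3f3a allele that encodes the K27M form of H3.3, in which methionine replaces a lysine of the histone tail, with those carrying the matching tagged wild-type allele (WT-Tag).

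The 20 K27M tumors carried Nestin-creERT2, H3f3a LSL-K27M-Tag/+, LSL-PDGFRαV544ins and Trp53 flox/flox, and the 9 WT-Tag tumors carried H3f3a LSL-WT-Tag/+ with the same other alleles. All tumors therefore shared the activated PDGFRα receptor and the floxed Trp53 alleles, and by the labels the groups differed in the H3f3a allele. LSL is a stop cassette that Cre recombinase removes, and the Nestin promoter drives Cre in neural progenitors. The neurospheres came from the forebrain or the hindbrain of e15.5 embryos with Nestin-cre and either H3f3a allele, without the PDGFRα transgene or the floxed Trp53, and each of the 4 culture groups held 3 libraries. The labels give no tumor age or induction schedule. They do not say whether tumors were separate animals, so each p-value measures the spread between these libraries, which may be partly technical.

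Microglia are the resident macrophages of the brain, derive from yolk sac progenitors, and depend on signaling through the receptor Csf1r. In gliomas they mix with macrophages that enter from the blood, and together these cells can be a large share of the tumor tissue. Homeostatic microglia are known by genes such as P2ry12 and Tmem119, macrophages at the brain's borders by Mrc1 and Cd163, and recruited monocytes by Ccr2. In bulk tissue, fewer cells of a type and less RNA per cell cannot be told apart.

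The total count behind each library was not part of the table. Relative depth was recovered from the smallest steps of low values, which were whole reads within 0.05 of a read for 99.93% of 14018 values compared. It ran from 0.429 to 1.798 in K27M tumors (median 0.919) and from 0.836 to 1.748 in WT-Tag tumors (median 1.268), relative to a common unit. The gene-level values do not separate the tagged from the untouched H3f3a allele and so give no check of the genotype labels. Sex-linked transcripts matched the labelled sex in 39 of 41 libraries and went against it in WT-Tag tumors 8 and 9: Xist was at 0.031 FPKM in tumor 8, labelled female, and at 54.5 FPKM in tumor 9, labelled male. The tumor comparisons and the 16 tested correlations were also run without these libraries.

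Transcription in microglia and macrophages depends on the ETS-family factor PU.1, which recognizes a purine-rich core. The motif AGGAAGT was searched on both strands (ACTTCCT on the reverse) in RefSeq promoters of build GRCm38.p6 (the submitters' notes name mm9 for the expression table), from 250 bases before to 50 after each start site. Of the 29 genes, 21 were in the promoter table, and 8 of these 21 (38.1%) held the motif, against 10.7% of 27025 genes in the table and 9.35% of all 32851 promoters. The carriers were P2ry12, C1qb, C1qc, Ctss, Ptprc, Lyz2, Mrc1 and Spp1. Below are 6 of these stretches, 250 bases before the start site, 5′ to 3′ on the gene's strand with the motif in capitals; they belong to the genes whose levels differ most in pattern below (a homeostatic gene, a pair of C1q chains, a border macrophage gene and the 2 most variable genes).
P2ry12 (chr3:59262986-59263235, - strand): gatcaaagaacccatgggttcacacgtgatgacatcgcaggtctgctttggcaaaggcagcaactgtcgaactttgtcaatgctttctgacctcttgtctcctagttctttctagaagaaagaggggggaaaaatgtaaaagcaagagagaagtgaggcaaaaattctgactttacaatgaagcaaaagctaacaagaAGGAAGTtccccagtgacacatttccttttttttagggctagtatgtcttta
C1qb (chr4:136886201-136886450, - strand): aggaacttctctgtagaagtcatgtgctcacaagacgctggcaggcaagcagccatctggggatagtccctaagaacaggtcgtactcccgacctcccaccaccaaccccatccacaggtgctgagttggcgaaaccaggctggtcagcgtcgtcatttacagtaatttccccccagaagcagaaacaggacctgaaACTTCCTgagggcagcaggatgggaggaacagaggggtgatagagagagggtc
C1qc (chr4:136892915-136893164, - strand): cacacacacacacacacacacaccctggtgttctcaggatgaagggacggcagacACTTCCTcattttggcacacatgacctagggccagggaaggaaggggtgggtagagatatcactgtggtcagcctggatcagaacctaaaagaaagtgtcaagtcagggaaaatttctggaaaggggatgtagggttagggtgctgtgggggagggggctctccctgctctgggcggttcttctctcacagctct
Mrc1 (chr2:14229164-14229413, + strand): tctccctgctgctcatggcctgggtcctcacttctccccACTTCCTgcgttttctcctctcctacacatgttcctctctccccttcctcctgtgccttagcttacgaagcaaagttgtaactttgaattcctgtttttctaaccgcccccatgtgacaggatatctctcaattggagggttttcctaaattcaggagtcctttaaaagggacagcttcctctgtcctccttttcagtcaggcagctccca
Lyz2 (chr10:117282273-117282522, - strand): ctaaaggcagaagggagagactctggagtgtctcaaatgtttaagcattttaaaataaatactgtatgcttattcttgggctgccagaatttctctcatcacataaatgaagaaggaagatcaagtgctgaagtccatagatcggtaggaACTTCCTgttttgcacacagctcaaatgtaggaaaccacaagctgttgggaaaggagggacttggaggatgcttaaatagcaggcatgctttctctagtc
Spp1 (chr5:104434861-104435110, + strand): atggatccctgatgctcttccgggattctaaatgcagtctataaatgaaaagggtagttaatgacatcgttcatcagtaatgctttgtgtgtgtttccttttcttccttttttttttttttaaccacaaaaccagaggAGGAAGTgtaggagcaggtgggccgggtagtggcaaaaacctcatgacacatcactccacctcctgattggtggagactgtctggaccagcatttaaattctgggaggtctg
The motif began 52 bases before the P2ry12 start, 53 before that of C1qb, 195 before that of C1qc, 211 before that of Mrc1, 100 before that of Lyz2 and 112 before the upstream start of Spp1. Thus genes with high, low and variable tumor levels all carried it. These letters describe the promoters and do not show that the factor was bound.

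The tumors expressed nearly the whole set and the cultures nearly none of it. The table lists 21 of the 29 genes at 1 FPKM or more in every tumor, and 25 of the 29 below 1 FPKM in every culture. For 25 of 29 genes the lowest tumor lay above the highest culture, compared with 1893 of 16803 genes tested over all libraries (11.3%). The 4 exceptions were Olfml3, Cd163, Ccr2 and Cd14. C1qa, a chain of the complement starter C1q, was lowest at 69.9 FPKM in any tumor and at most 0.1 FPKM in any culture. Cathepsin S (Ctss), a lysosomal protease of antigen-presenting cells, was lowest at 83.9 FPKM in any tumor and highest at 0.325 FPKM in any culture. For these genes the tissue levels stood clear of the cultures without overlap.

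**Figure D1:**
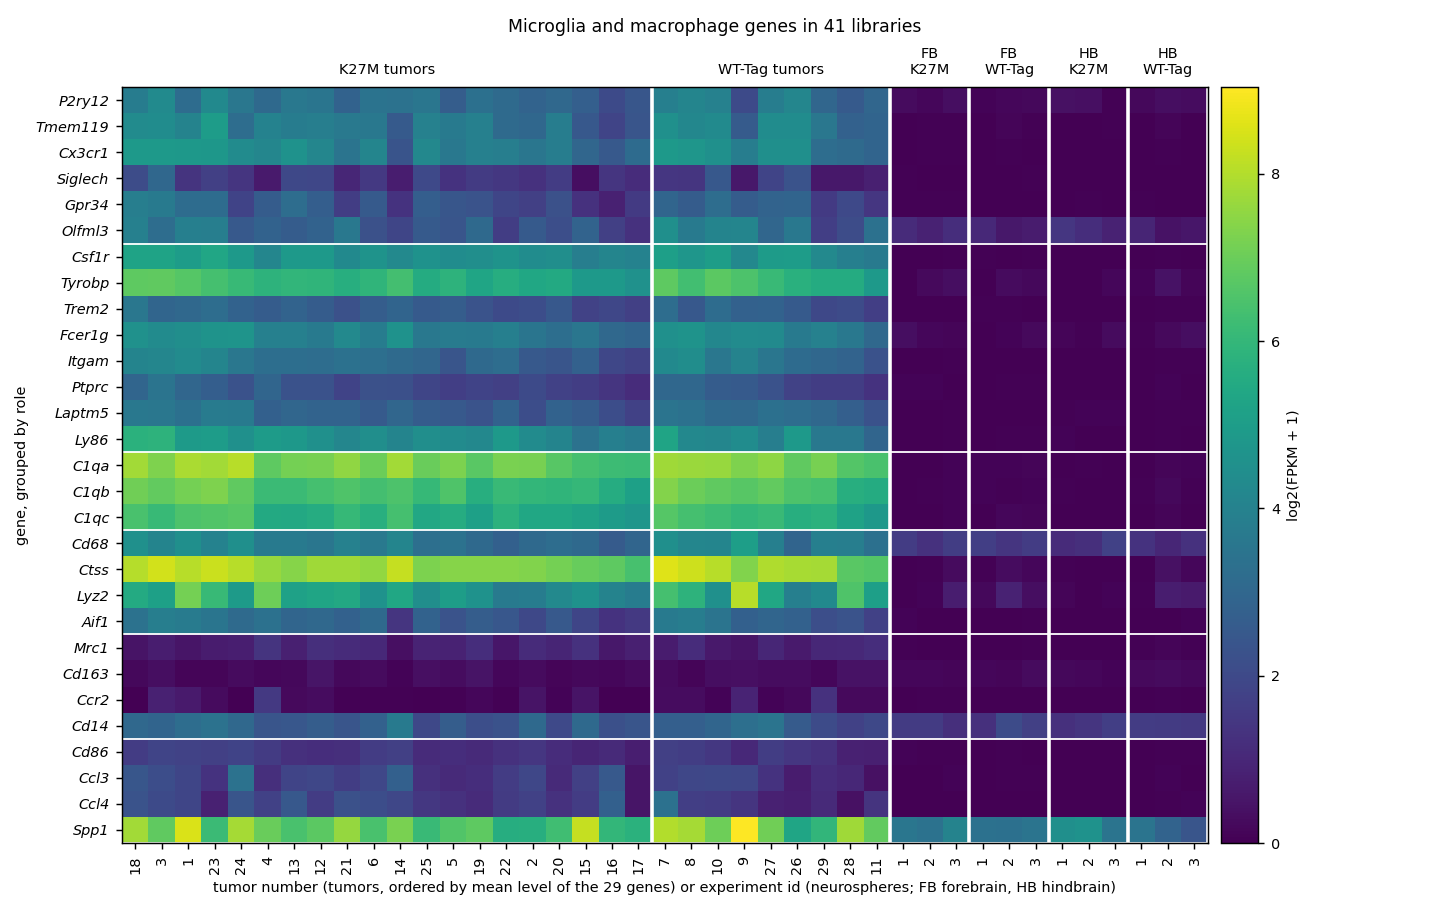
Levels of the 29 genes (rows, grouped by role) in 41 libraries (columns), as log2(FPKM + 1) on the color scale. Tumors of each genotype are ordered by their mean level over the genes. Ctss, Spp1 and the C1q genes are brightest in tumors, and the culture columns are dark except in the rows of Spp1, Cd68, Cd14 and Olfml3.

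In the linear model across all genes (limma on log2(FPKM + 1) with Benjamini-Hochberg adjustment), 27 of the 29 genes passed the filter on low values, and Cd163 and Ccr2 did not. All 27 tested genes were higher in K27M tumors than in K27M hindbrain cultures, where 33.1% of 16803 genes were called higher. In WT-Tag tumors against WT-Tag hindbrain cultures, 27 of 27 were again called higher, with a background of 28.9%. The median change of the 27 was 2.77 (log2) in the first comparison and 3.12 in the second, against medians of 0.10 and 0.16 over all genes tested. A gene that passed the filter only through its tumor level had to differ, so these counts describe the contrast and give it no further support. Changes against values near 0 depend on the pseudocount and are no bound.

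The mean level over all 29 genes, on the log2(FPKM + 1) scale, ran from 2.59 to 4.14 among K27M tumors and from 2.88 to 4.20 among WT-Tag tumors, but only from 0.28 to 0.37 in cultures. Other cell classes also separated tissue from culture: 10 of 10 endothelial markers were called higher in K27M tumors than in hindbrain cultures, as were 8 of 8 genes of mature oligodendrocytes and 10 of 11 neuronal genes. Proliferation genes were lower in 8 of 8. Over all 16803 genes tested 33.1% were called higher, and 55.6% of the 10008 calls in either direction were higher. Tissue and culture thus differed in many cell types at once, and the part of each in the myeloid difference was not tested.

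Between tumor genotypes no gene of the set passed the test. Of 27 tested genes, 0 were called in K27M against WT-Tag tumors by limma, where 13 of 15360 genes were called (0.0846%), and 1 of the 27 had an unadjusted p under 0.05. The fitted differences were positive for 8 genes and negative for 19, with a median of -0.13 (log2) against -0.01 over all genes, of which 46.6% were positive. The differences spanned -0.66 to 0.41, and adjusted p-values ran from 0.683 to 0.996. A p above the threshold does not show equal levels: the 95% intervals of single genes were wide, as the plot of genotype differences shows.

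**Figure D2:**
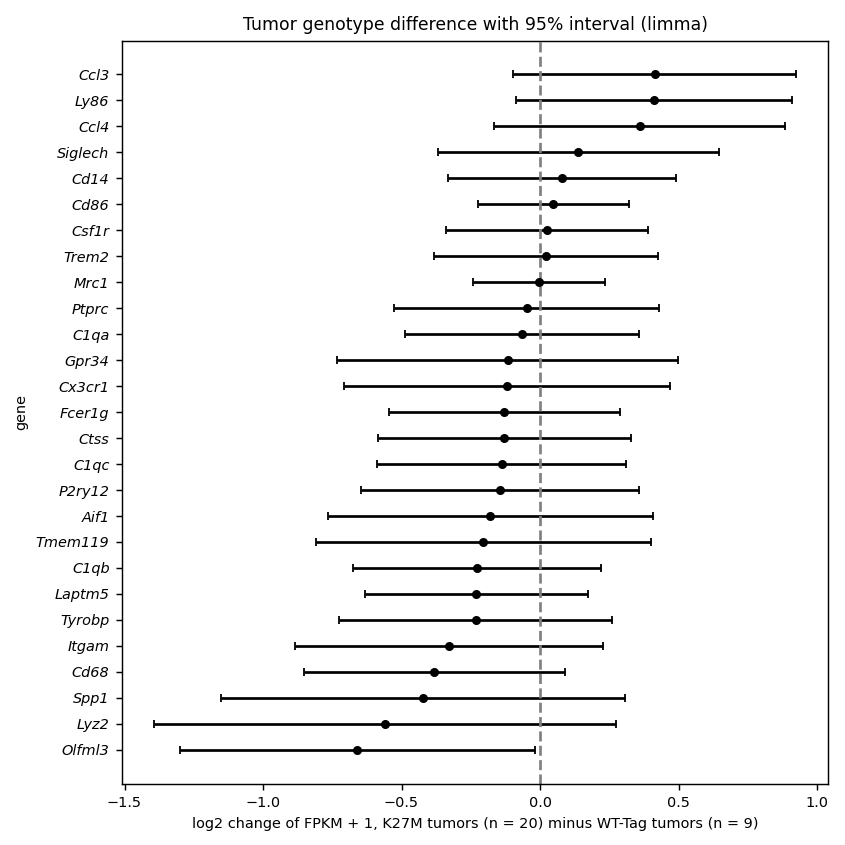
Difference between K27M (n = 20) and WT-Tag (n = 9) tumors for the 27 genes tested, in log2 of FPKM + 1; points are limma estimates and bars their 95% intervals. The intervals of 26 genes include 0; that of Olfml3 runs from -1.30 to -0.02, with an adjusted p of 0.683.

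Homeostatic microglia genes were present in both genotypes with overlapping ranges. P2ry12, the purine receptor by which resting microglia sense tissue damage, ran from 3.06 FPKM through a median of 8.70 to 19.2 in K27M tumors, and from 3.04 through 13.3 to 16.8 in WT-Tag tumors. Its difference was -0.14 ± 0.25 (log2, SE), adjusted p = 0.913 (limma). The ranges overlapped: 2 of 20 K27M tumors exceeded the WT-Tag median, and 5 of 9 WT-Tag tumors exceeded the K27M median. Tmem119, a microglial membrane protein, ran from 2.60 through 12.4 to 30.7 FPKM in K27M and from 5.10 through 17.1 to 21.98 FPKM in WT-Tag tumors. Cx3cr1, the receptor for the neuronal chemokine fractalkine, ran from 4.04 through 15.3 to 28.6 FPKM and from 6.60 through 21.5 to 28.6 FPKM. The ranges of both genes overlapped, with differences of -0.21 ± 0.30 for Tmem119 and -0.12 ± 0.29 for Cx3cr1.

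Siglech, a sialic acid-binding lectin, was a low member of the group, with 0.262, 1.70 and 7.17 FPKM as lowest, median and highest K27M values and 0.491, 1.66 and 4.65 FPKM in WT-Tag tumors. It reached 1 FPKM in 21 of 29 tumors, and its difference was 0.14 ± 0.25. Gpr34, a lysophosphatidylserine receptor, lay between 0.773 and 13.7 FPKM over all tumors. Olfml3, a secreted olfactomedin-like protein, had the most negative difference of the set. It ran from 1.43 through 5.09 to 14.3 FPKM in K27M tumors and from 2.21 through 11.3 to 21.5 FPKM in WT-Tag tumors, with 3 of 20 K27M tumors above the WT-Tag median and 7 of 9 WT-Tag tumors above the K27M median. The difference was -0.66 ± 0.31 (p = 0.0446, adjusted p = 0.683 by limma), so it did not pass the threshold over all genes.

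Surface receptors and their signaling partners showed the same overlap. Csf1r, the receptor for the survival factors Csf1 and Il34, was at 23.9 ± 7.53 FPKM (SD, n = 20) in K27M tumors and 23.9 ± 8.36 FPKM (SD, n = 9) in WT-Tag tumors. Its lowest, median and highest values were 13.5, 22.2 and 39.7 FPKM against 12.3, 25.9 and 33.6 FPKM. The difference was 0.02 ± 0.18, with a 95% interval from -0.34 to 0.39. Its SD within genotypes was 0.458 (log2), lower than that of any other tested gene of the set except Mrc1 and Cd86. Tyrobp, the adaptor through which Trem2 signals, ran from 22.9 through 56.2 to 112 FPKM in K27M tumors and from 28.5 through 68.0 to 109.8 FPKM in WT-Tag tumors, with a difference of -0.23 ± 0.24. Trem2, a lipid-sensing receptor, ran from 2.255 through 5.12 to 11.04 FPKM and from 2.18 through 4.92 to 8.36 FPKM, with a difference of 0.02 ± 0.20.

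Ly86, a partner of the Toll-like receptor relative RP105, had the most positive difference outside the chemokines. It ran from 9.72 through 21.3 to 55.8 FPKM in K27M tumors and from 6.74 through 16.7 to 37.9 FPKM in WT-Tag tumors, with 14 of 20 K27M tumors above the WT-Tag median and 2 of 9 WT-Tag tumors above the K27M median. The ranges overlapped, and the difference was 0.41 ± 0.24 (adjusted p = 0.762 by limma). Itgam, the integrin chain CD11b, ran from 2.41 through 8.39 to 19.5 FPKM against 3.84 through 10.8 to 20.4 FPKM, a difference of -0.33 ± 0.27. Fcer1g (a signaling chain of Fc receptors), Ptprc (the leukocyte phosphatase CD45) and Laptm5 (a lysosomal membrane protein of blood cells) differed by -0.13, -0.05 and -0.23. Over all tumors they spanned 6.48 to 24.6, 1.205 to 10.2 and 2.34 to 12.6 FPKM.

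The complement genes were among the highest of the set per length. C1qa ran from 69.9 through 144 to 266 FPKM in K27M tumors and from 86.4 through 155 to 213 FPKM in WT-Tag tumors, a difference of -0.07 ± 0.21. C1qb and C1qc, the other chains of C1q, spanned 33.9 to 165 FPKM and 26.1 to 103 FPKM over the 29 tumors and differed by -0.23 ± 0.22 and -0.14 ± 0.22. All 3 differences were negative, none was called, and the genotype ranges overlapped. C1qc lies next to both C1qa and C1qb on chromosome 4 in the RefSeq annotation, with no coding gene between.

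Among the lysosomal and phagocytic genes, Ctss had the highest mean of the set, 200.2 ± 71.0 FPKM (SD, n = 20) in K27M and 225 ± 94.6 FPKM (SD, n = 9) in WT-Tag tumors. Cd68, a lysosomal membrane glycoprotein of macrophages, ran from 4.99 through 11.2 to 22.1 FPKM in K27M and from 6.47 through 14.1 to 32.9 FPKM in WT-Tag tumors, a difference of -0.38 ± 0.23. Aif1, the actin-binding protein known as Iba1, spanned 1.501 to 13.7 FPKM over all tumors. Lyz2, a lysozyme of macrophages and monocytes, was the most variable gene of the set. It ran from 11.9 through 30.6 to 139.5 FPKM in K27M tumors and from 14.01 through 40.9 to 267 FPKM in WT-Tag tumors. The highest values were in WT-Tag tumor 9 and K27M tumor 1, and the ranges overlapped, with a difference of -0.56 ± 0.41 (adjusted p = 0.791 by limma). Red blood cell genes had mean log2(FPKM + 1) levels of 3.77 and 5.71 in these tumors and 4.97 in WT-Tag tumor 8. The medians were 1.15 over K27M and 0.93 over WT-Tag tumors. The part of blood content in the Lyz2 values was not tested. Lyz2 has a near-identical neighbor, Lyz1, and reads shared by the pair could have been split by the counting.

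Mrc1, Cd163 and Ccr2, markers of other macrophage sources, were low, whereas Cd14 was not. Mrc1, the mannose receptor of border macrophages, ran from 0.282 through 0.784 to 1.54 FPKM in K27M tumors and from 0.386 through 0.954 to 1.28 FPKM in WT-Tag tumors, and reached 1 FPKM in 11 of 29. Its difference was 0.00 ± 0.12. Cd163, a hemoglobin scavenger receptor, ran from 0.064 through 0.1455 to 0.417 FPKM and from 0.082 through 0.238 to 0.372 FPKM, which overlapped the culture range of 0.059 to 0.198 FPKM. Ccr2, the chemokine receptor of inflammatory monocytes, ran from 0.015 through 0.059 to 1.81 FPKM in K27M tumors and from 0.057 through 0.179 to 1.44 FPKM in WT-Tag tumors. Ccr2 reached 1 FPKM in only 2 of 29 tumors, K27M tumor 4 and WT-Tag tumor 29. Cd14, a lipopolysaccharide co-receptor, ran from 2.93 through 5.36 to 11.8 FPKM and from 2.33 through 5.70 to 10.1 FPKM, a difference of 0.08 ± 0.20.

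Among the activation genes none was called; fitted differences were positive for the chemokines and Cd86 and negative for Spp1. Ccl3, an inflammatory chemokine, ran from 0.425 through 2.45 to 9.66 FPKM in K27M tumors and from 0.326 through 1.49 to 2.92 FPKM in WT-Tag tumors. In all, 5 of 20 K27M tumors lay above every WT-Tag tumor, with a difference of 0.41 ± 0.25 (adjusted p = 0.763 by limma). The same count held for C1qa, whose difference was -0.07, and the share over all genes was not computed. Ccl4, its neighbor on chromosome 11, ran from 0.427 through 2.35 to 5.74 FPKM against 0.316 through 1.59 to 9.46 FPKM, a difference of 0.36 ± 0.26. The highest Ccl4 value belonged to WT-Tag tumor 7. Of the K27M tumors 15 of 20 exceeded the WT-Tag median, and 1 of 9 WT-Tag tumors exceeded the K27M median. Spp1, osteopontin, which glial and tumor cells can also make, ran from 48.8 through 102 to 363 FPKM in K27M tumors and from 38.3 through 135 to 524 FPKM in WT-Tag tumors. Its ranges overlapped and its difference was -0.42 ± 0.36. Cd86, a co-stimulatory ligand for T cells, spanned 0.703 to 2.59 FPKM over all tumors.

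The fit was repeated with the Csf1r level of each tumor as a covariate, so that genes were compared at an equal Csf1r level, and 0 of the 26 other genes were called. The smallest unadjusted p-values were then 0.0155 for Olfml3 and 0.0166 for Ly86, with adjusted p-values of 0.521 and 0.528. Without WT-Tag tumors 8 and 9, 0 of 27 genes were called, and the differences of Lyz2, Spp1, Cd68 and Olfml3 were -0.16, -0.07, -0.20 and -0.50. WT-Tag tumor 9 held the highest Lyz2, Spp1 and Cd68 values of all tumors. With relative depth as a covariate, 0 of 27 were called and the same genes differed by -0.36, -0.17, -0.20 and -0.62. For labelled sex, with genotype in the model, 0 of 27 genes were called between the tumors labelled female and male (11 and 9 with K27M, 6 and 3 with WT-Tag), where 5 of 15360 genes were called (0.0326%). The label went against sex-linked transcripts in WT-Tag tumors 8 and 9, and without them 0 of 27 were called.

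Single tumors moved the size of these uncalled differences. On leaving out each tumor in turn, none of the 27 genes was called. Spp1 then ran from -0.66 to -0.19 and Lyz2 from -0.77 to -0.25, each nearest 0 without WT-Tag tumor 9 and most negative without WT-Tag tumor 26. P2ry12 ran from -0.32 to -0.05, nearest 0 without WT-Tag tumor 26, and Cx3cr1 from -0.26 to -0.01, nearest 0 without WT-Tag tumor 7. Tmem119 ran from -0.35 to -0.11, Siglech from 0.04 to 0.28, Ccl4 from 0.24 to 0.61, Ly86 from 0.27 to 0.56 and Olfml3 from -0.87 to -0.52.

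The median SD of the 27 genes within genotypes was 0.628 (log2), against 0.382 over 15360 genes tested. Lyz2 had an SD of 1.07, above 97.2% of genes, and Spp1 one of 0.936, above 95.3%. Mrc1 varied less than most, with 0.279, above 23.5% of genes, at a level where log2(FPKM + 1) compresses differences. The mean level over the 29 genes was lowest in K27M tumors 17 and 16 and WT-Tag tumor 11, at 2.59, 2.78 and 2.88. It was highest in WT-Tag tumor 7 and K27M tumors 18, 3 and 1, at 4.20, 4.14, 4.11 and 4.10. K27M tumor 17 was the lowest of all 29 tumors for 11 of the 29 genes, and K27M tumor 3 the highest for 7. The extremes thus came from both genotypes.

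Among the lowest tumors, relative depth was 0.43 in K27M tumor 16, 1.23 in K27M tumor 17 and 1.60 in WT-Tag tumor 11. Their neuronal marker levels were 5.90, 4.91 and 5.20 on the mean log2(FPKM + 1) scale, where the median was 4.95 over K27M and 4.33 over WT-Tag tumors. Next lowest in the set were K27M tumor 15 and WT-Tag tumor 28, whose neuronal levels were 2.87 and 2.75. In the 4 highest tumors the neuronal level was 4.35, 4.02, 2.88 and 2.68. With the neuronal level as a covariate, 0 of 27 genes were called between genotypes, and the differences of Lyz2 and Spp1 were -0.24 and -0.20.

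Across the 29 tumors most of the genes moved together. Of 406 pairs among the 29 genes, 344 had a positive Pearson correlation of log2(FPKM + 1), with a median r of 0.533. All genes of a point share 1 library and its depth. The same values were not computed for other genes, so how far these exceed the background is not known. By role, the median r within a group was 0.946 for the C1q chains, 0.768 for surface receptors, 0.685 for homeostatic genes, 0.608 for lysosomal genes, 0.396 for activation genes and -0.044 for macrophage and monocyte markers. The correlation plot shows a block of high values from which a few rows depart.

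**Figure D3:**
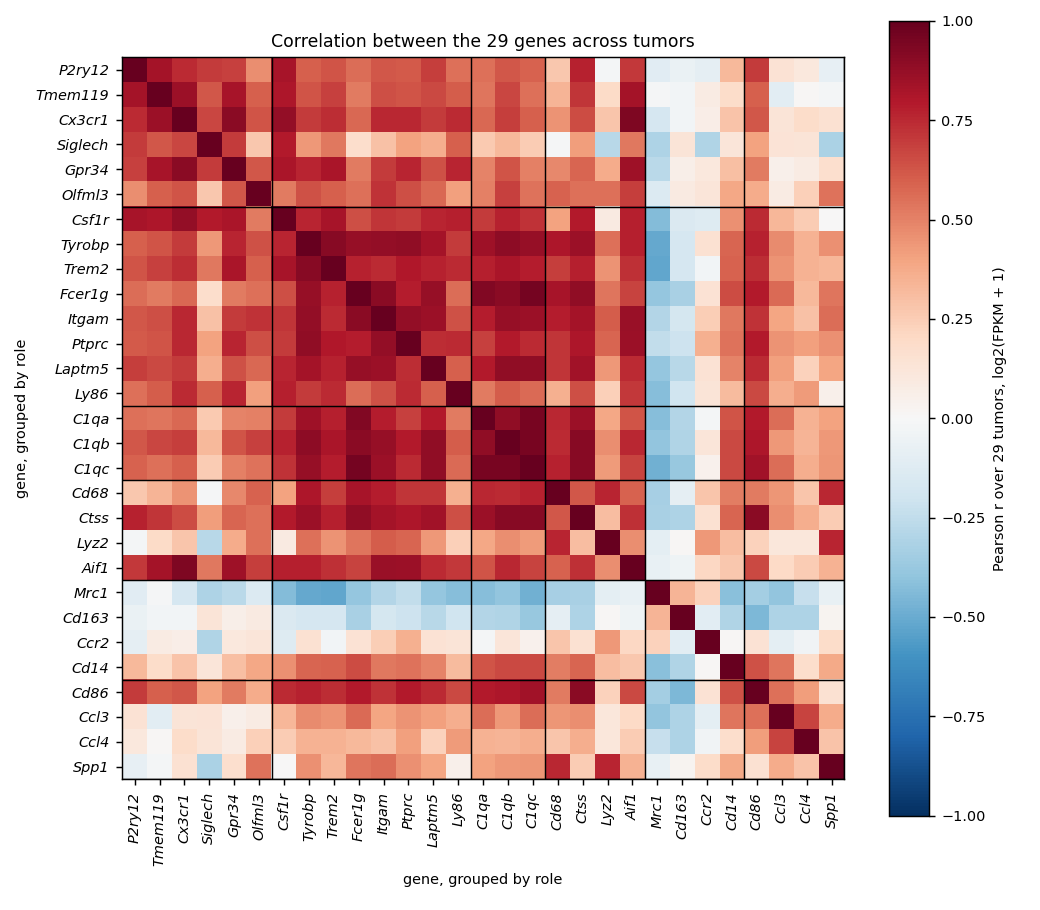
Pearson correlation of log2(FPKM + 1) between each pair of the 29 genes over 29 tumors, grouped by role; red is positive and blue negative. The C1q genes form the darkest small block, with a median r of 0.946, and the rows of Mrc1 and Cd163 are mostly blue.

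A set of 16 pairs was chosen for testing from known biology, but with earlier results of these data known. Their p-values came from permutation tests (100000 resamples, 2-sided) adjusted over the 16, and are no independent support. P2ry12 and Tmem119 rose and fell together, with r = 0.833 and rho = 0.830 (permutation p = 1e-05 for each, the smallest the resamples can give; adjusted p = 0.00016 for r and 8e-05 for rho). The relation held within K27M tumors (r = 0.778) and within WT-Tag tumors (r = 0.947). Without the 2 tumors farthest from the median of P2ry12, r was 0.781. Values given below as without 2 tumors likewise leave out those farthest from the median of the first-named gene. Csf1r and C1qa followed, with r = 0.697 and rho = 0.657 (permutation p = 4e-05 and 0.00014, adjusted p = 0.000267 and 0.000747), and r = 0.649 without 2 tumors. Ccl3 and Ccl4 had r = 0.676 and rho = 0.759 (permutation p = 5e-05 and 1e-05, adjusted p = 0.000267 and 8e-05), and r = 0.709 without 2 tumors. These are a pair of microglial surface genes, a receptor and a secreted product, and neighboring chemokine genes.

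For receptors and their ligands the picture was mixed. Csf1r and its ligand gene Csf1 had r = 0.534 and rho = 0.504 (permutation p = 0.00285 and 0.00558, adjusted p = 0.00912 and 0.0179), with r = 0.374 within K27M tumors, 0.721 within WT-Tag tumors and 0.496 without 2 tumors. The other ligand gene, Il34, had r = -0.362 and rho = -0.336 with Csf1r (permutation p = 0.054 and 0.0753, adjusted p = 0.123 and 0.151), which did not pass. Trem2 and Apoe, whose lipoprotein Trem2 can bind, had r = 0.550 and rho = 0.544 (permutation p = 0.00206 and 0.00279, adjusted p = 0.00824 and 0.0112). Under quantile normalization that r fell to 0.387 with an adjusted p of 0.0846. Cx3cr1 with its ligand gene Cx3cl1 had r = -0.171 (permutation p = 0.375, adjusted p = 0.599) and rho = -0.153 (permutation p = 0.424), and Ccr2 with its ligand gene Ccl2 had r = -0.038 (permutation p = 0.847) and rho = 0.068 (permutation p = 0.725).

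The monocyte receptor gene Ccr2 followed Lyz2 weakly, with r = 0.437 and rho = 0.422 (permutation p = 0.0185 and 0.0233, adjusted p = 0.0494 and 0.0621). Within genotypes r was 0.590 in K27M and 0.142 in WT-Tag tumors, and 0.551 without 2 tumors. Without WT-Tag tumors 8 and 9 the pair did not pass (r = 0.351, permutation p = 0.0699, adjusted p = 0.14), with r = -0.295 in the other 7 WT-Tag tumors. Mrc1 and Cd163, both scavenger receptors of border macrophages, had r = 0.339 (permutation p = 0.071, adjusted p = 0.14) and rho = 0.288 (permutation p = 0.128). Without WT-Tag tumors 8 and 9 that r passed, at 0.469 (permutation p = 0.0138, adjusted p = 0.0369). P2ry12 and Mrc1 had r = -0.114 (permutation p = 0.555) and rho = -0.187 (permutation p = 0.33), and Trem2 and Spp1 r = 0.331 (permutation p = 0.0789, adjusted p = 0.14) and rho = 0.376 (permutation p = 0.0446, adjusted p = 0.102). For markers of other cells, r with Csf1r was 0.066 for Pdgfra, -0.040 for the proliferation gene Mki67 and -0.066 for the neuronal gene Stmn2, with permutation p-values of 0.731, 0.839 and 0.734. P2ry12 and Stmn2 had r = -0.132 (permutation p = 0.494) and rho = -0.227 (permutation p = 0.235).

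Other pairs were picked after the 406 values were seen and are a description. Fcer1g and C1qc were the closest pair of all, with r = 0.957 and rho = 0.949. Cx3cr1 and Aif1 had r = 0.932 and rho = 0.928. Lyz2 and Spp1, the 2 most variable genes, had r = 0.765 and rho = 0.763, with r = 0.608 within K27M tumors, 0.946 within WT-Tag tumors and 0.645 without K27M tumor 1 and WT-Tag tumor 9. With Csf1r, r was 0.087 for Lyz2 and 0.000684 for Spp1. With Siglech, r was -0.280 for Lyz2 and -0.313 for Spp1, and rho was -0.196 and -0.290. Permutation p-values of r adjusted over the 406 pairs were 4.19e-05 for each of the first 3 pairs, 0.702 and 0.997 for the pairs with Csf1r, and 0.182 and 0.137 for those with Siglech. Tumors high in Lyz2 were thus high in Spp1, WT-Tag tumor 9 most of all.

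Mrc1 was negatively correlated with 26 of the 28 other genes and Cd163 with 22 of 28. The most negative of all pairs was Trem2 with Mrc1, at r = -0.518 and rho = -0.523, with r = -0.428 within K27M tumors, -0.738 within WT-Tag tumors and -0.421 without 2 tumors. Its permutation p-values were 0.00441 for r and 0.00409 for rho, with adjusted p-values of 0.00837 and 0.00806 over the 406 pairs. Csf1r and Mrc1 had r = -0.432 and rho = -0.407, with adjusted permutation p-values of 0.0334 and 0.0465 and r = -0.369 without 2 tumors. Mrc1 did not exceed 1.54 FPKM in any tumor.

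**Figure D4:**
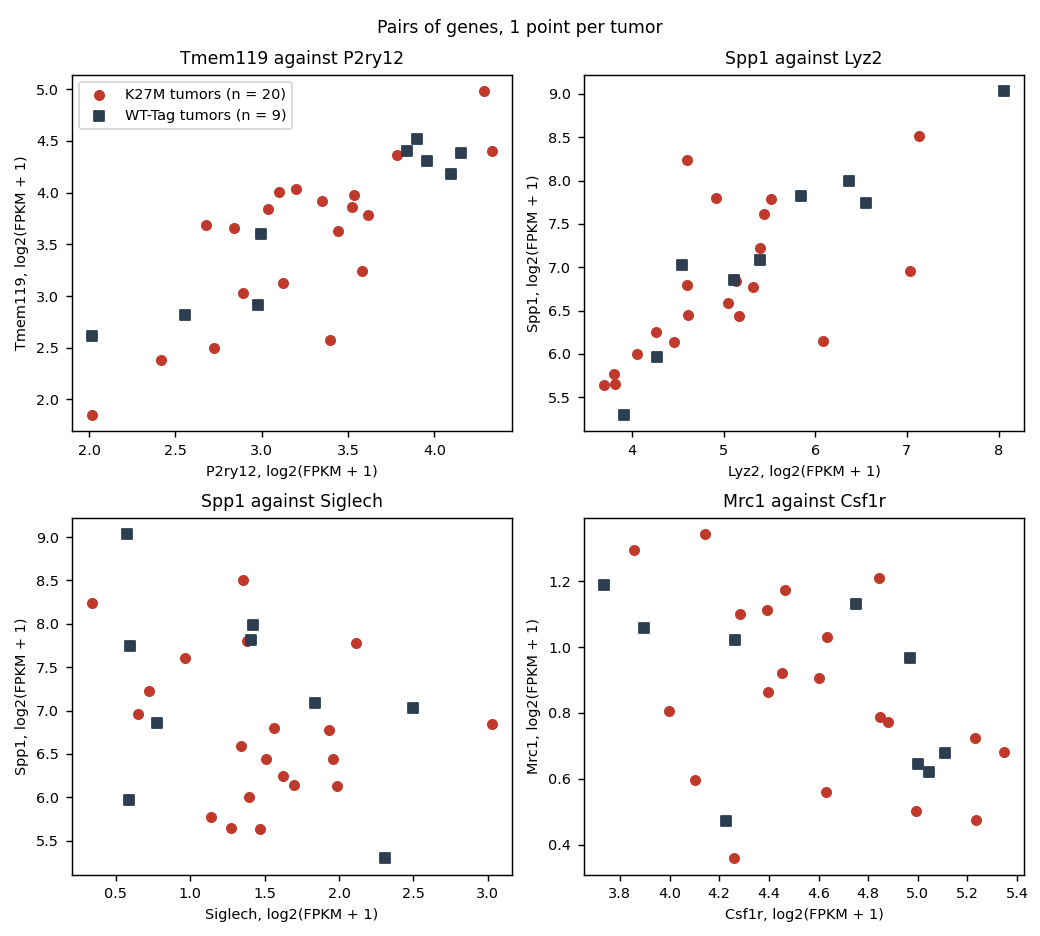
Pairs of genes over 29 tumors on log2(FPKM + 1) axes, 1 point per tumor (circles K27M, n = 20; squares WT-Tag, n = 9). Tmem119 rises with P2ry12 (r = 0.833) and Spp1 with Lyz2 (r = 0.765), whereas Spp1 against Siglech (r = -0.313) and Mrc1 against Csf1r (r = -0.432) slope down with wide scatter.

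Other genes of the myeloid lineage came from separate lists. Against K27M hindbrain cultures, K27M tumors were called higher for 10 of 10 tested further microglia genes and 14 of 14 innate receptor and complement genes. So were 7 of 8 myeloid transcription factors, 9 of 11 myeloid ligands and 5 of 6 lipid and damage response genes. Of the border and blood macrophage genes, 5 of 6 tested were called higher, and Pf4 was called lower (-1.18 ± 0.22, adjusted p = 3.36e-05 by limma). Over all genes tested 33.1% were called higher. Here too a gene that passed the filter only through its tumor level had to differ, so these counts are a description. Between tumor genotypes 0 genes of any of these lists were called. Fitted differences were negative for 10 of 10 further microglia genes (median -0.15), for 10 of 14 innate genes (median -0.15) and for 5 of 6 lipid and damage response genes (median -0.37). For myeloid ligands 7 of 11 were negative (median -0.05), for transcription factors 4 of 8 (median -0.02), and for border and blood macrophage genes 2 of the 5 that passed the filter (median 0.20). Over all genes tested 46.6% of the differences were positive. Genes that vary together across tumors do not give independent signs, so these counts of signs are a description.

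The largest of these differences was in Fcrls, an Fc receptor-like gene known as a microglia marker in mouse, at 2.89 ± 2.14 FPKM (SD, n = 20) in K27M and 9.31 ± 6.04 FPKM (SD, n = 9) in WT-Tag tumors. It was -1.30 ± 0.32 (log2, SE), with p = 0.000275 and an adjusted p of 0.162 by limma, so it did not pass. Without WT-Tag tumors 8 and 9 it was -1.09, with an adjusted p of 0.632. Gpnmb, a glycoprotein of lipid-laden macrophages, was at 49.0 ± 48.1 FPKM in K27M and 118 ± 145 FPKM in WT-Tag tumors (-0.84 ± 0.57). Axl, a receptor for dying cells that other cell types also express, differed by -0.63 ± 0.23 (adjusted p = 0.508 by limma). C3 and C4b, complement components that astrocytes can also make, had positive fitted differences, at 0.67 ± 0.25 and 0.80 ± 0.33, with adjusted p-values of 0.538 and 0.612. Reads of C4b can be shared with its near copy C4a.

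Few lymphocyte and neutrophil genes passed the filter in tumors, 1 of 18 and 0 of 10. Single tumors stood out in the mean log2(FPKM + 1) of the neutrophil list. It was 0.956 in K27M tumor 15, 0.921 in WT-Tag tumor 8 and 0.637 in K27M tumor 3, against medians of 0.131 over K27M and 0.147 over WT-Tag tumors. Of the marker lists of neural cells no gene was called. Fitted differences were positive for 11 of 11 neuronal genes and 8 of 8 genes of mature oligodendrocytes, with medians of 0.59 and 0.85, where 46.6% of all genes were positive. The ranges of their mean levels overlapped, from 2.36 to 5.90 in K27M and 2.19 to 5.20 in WT-Tag tumors for neurons, on the mean log2(FPKM + 1) scale. For mature oligodendrocytes they were 5.76 to 7.40 and 4.62 to 7.32. The part of this tissue makeup in the differences of the myeloid genes was not tested. The median of the 27 was -0.13 in the main fit and -0.03 with the neuronal level as a covariate. It was also -0.05 with relative depth as a covariate and -0.05 without WT-Tag tumors 8 and 9. Without the 3 tumors lowest in the set it was -0.14.

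In the neurospheres the set served as a near-absent reference, and 4 genes were detectable enough to test: Spp1, Cd68, Cd14 and Olfml3. The other 25 genes stayed below 1 FPKM in all 12 cultures. Summed over all 12 cultures, the values of Ccl4 amounted to 3 of the smallest steps, those of Ccl3 to 6, those of Ly86 to 9 and those of Aif1 to 10, where a step is the value of a single read. Of the defining microglia genes, Csf1r was at most 0.040 FPKM, Cx3cr1 at most 0.035 FPKM and Tmem119 at most 0.081 FPKM in these cultures. P2ry12 was listed above 0 in every culture, between 0.042 and 0.325 FPKM. The neural precursor genes Nes and Sox2 were at 43.6 FPKM or more and 76.7 FPKM or more in every culture. Hoxb4, which marks the posterior hindbrain, was at most 0.549 FPKM in any culture, hindbrain included.

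Spp1, called in hindbrain, was the only gene of the set called between culture genotypes when the experiments were not paired. Its FPKM in experiments 1, 2 and 3 were 21.5, 23.1 and 10.2 in K27M hindbrain and 10.2, 6.28 and 4.27 in WT-Tag hindbrain cultures. Within each experiment the K27M culture was higher, while K27M experiment 3 and WT-Tag experiment 1 nearly coincided at 10.178 and 10.243 FPKM. The difference was 1.27 ± 0.31 (log2, SE), an FPKM + 1 ratio of 2.41, with an adjusted p of 0.0241 by limma over 13190 genes, of which 13.5% were called and 8.42% were higher. With the experiment id as a replicate block, which pairs the cultures, the adjusted p was 0.0246 and Olfml3 was called as well (0.51, adjusted p = 0.0445), which made 2 of 4. The call was lost without K27M 1, K27M 2, WT-Tag 2 or WT-Tag 3, with adjusted p-values up to 0.0944, with the 2 groups fitted alone (0.0913) and without the filter on low values (0.0635). Where the call was lost the change was 1.01 to 1.27. Without WT-Tag 1 both Spp1 and Olfml3 were called. All 3 K27M cultures were labelled female, whereas 1 of the 3 WT-Tag cultures, experiment 3, was labelled male.

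In forebrain cultures Spp1 was at 10.7, 9.58 and 15.47 FPKM with K27M and at 9.46, 9.09 and 10.005 FPKM with WT-Tag, and the groups overlapped. The difference was 0.27 ± 0.31, and 0 of 4 genes were called where 0.356% of 13190 were. The change of Spp1 differed between regions by 1.00 ± 0.44 with an adjusted p of 0.766 by limma, in a test where 0.0379% of genes were called, so a regional difference was not shown. Olfml3 was at 1.68, 1.24 and 0.799 FPKM in K27M and 0.921, 0.355 and 0.448 FPKM in WT-Tag hindbrain cultures, a difference of 0.51 ± 0.19 (adjusted p = 0.107 by limma). Cd68 lay between 0.949 and 2.34 FPKM and Cd14 between 1.31 and 3.19 FPKM over all 12 cultures, with genotype differences from -0.23 to 0.17 and no call in either region.

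Genes that act on or in myeloid cells but are also made by neural cells were tested in the same hindbrain cultures. Of 6 ligand genes tested, 1 rose and 3 fell with K27M, where 8.42% of all 13190 genes were called higher and 5.13% lower. Apoe, the lipoprotein that Trem2 can bind, was at 63.2 ± 25.2 FPKM in K27M and 461 ± 319 FPKM in WT-Tag cultures (SD, n = 3), a change of -2.59 ± 0.57 (adjusted p = 0.0149 by limma). Csf1, the ligand of Csf1r, was at 2.90 ± 0.33 FPKM against 4.25 ± 0.76 FPKM, and Cd200, an inhibitor of myeloid activation, at 1.40 ± 0.32 FPKM against 2.69 ± 0.58 FPKM. Cd47, the signal that restrains phagocytosis, was at 5.79 ± 0.96 FPKM against 3.88 ± 0.11 FPKM. Their changes were -0.42, -0.62 and 0.47, with adjusted p-values of 0.0361, 0.0307 and 0.0328 by limma.

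Sall1, a transcription factor of microglia and of neural progenitors, rose by 1.21 ± 0.30 (adjusted p = 0.0239), and Axl fell by 0.89 ± 0.21 (adjusted p = 0.0219), both by limma. The astrocyte list fell in 6 of 8 tested genes in the same comparison and the mature oligodendrocyte list in 2 of 6, and the part of glial marker content in the ligand changes was not tested. These calls come from a comparison whose count of all called genes ran from 554 to 4212 on leaving out each replicate. In tumors 0 of these genes were called between genotypes.

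The difference between genotypes in the tumor-to-hindbrain change was also tested directly for these genes, in a fit where 0.583% of 16803 genes were called. Apoe was called: it rose by 3.75 ± 0.35 with K27M and by 1.23 ± 0.37 with WT-Tag, a difference of 2.52 ± 0.51 (log2, SE; adjusted p = 0.0073 by limma). Without WT-Tag tumors 8 and 9 that difference was 2.46 ± 0.52 (adjusted p = 0.0164). Csf1, Cd200, Cd47, Sall1 and Axl were not called, with differences of 0.39, 0.88, -0.57, -1.18 and 0.25 and adjusted p-values of 0.870, 0.644, 0.684, 0.349 and 0.931 by limma. This test uses the same hindbrain cultures as the calls above.

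**Figure D5:**
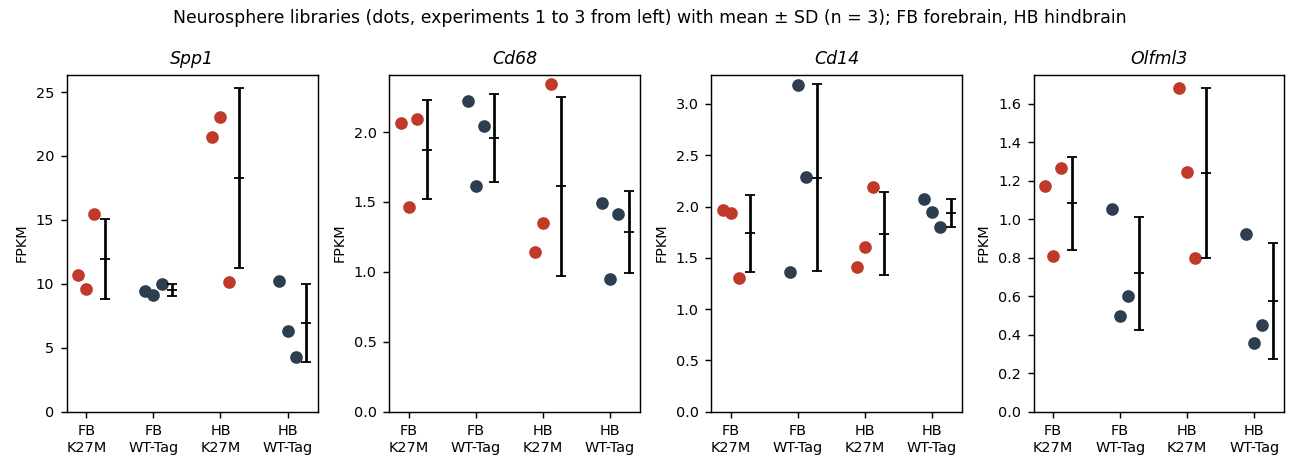
FPKM of the 4 genes tested in neurospheres, by group; dots are libraries (experiments 1 to 3 from left) and bars mean ± SD (n = 3). Spp1 reaches 21.5 and 23.1 in K27M hindbrain cultures 1 and 2, and the other genes reach at most 3.19.

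Fitted differences of Spp1 and Olfml3 were positive in hindbrain cultures and negative in tumors, where neither was called; that of Spp1 in tumors was -0.07 ± 0.36 without WT-Tag tumors 8 and 9. The tumor-to-culture rise of Spp1 was 2.59 ± 0.50 with K27M and 4.29 ± 0.54 with WT-Tag, and its difference between genotypes was -1.69 ± 0.74 (adjusted p = 0.474 by limma). For Olfml3 the rises were 1.55 ± 0.44 and 2.71 ± 0.47, a difference of -1.17 ± 0.64 (adjusted p = 0.637). None of the 27 genes was called in this test of the difference, and 1 of the 27 had an unadjusted p under 0.05. These tests use the same hindbrain cultures as the comparison above.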

How the data were processed

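RNA sequencing libraries were prepared from total RNA with a stranded kit, per the labels' protocols. The authors deposited 1 table of FPKM per gene and library, which is normalized for length and depth. CASAVA, TopHat2, STAR and build mm9 are named in the submitters' processing notes without versions or roles. The counting tool, the annotation and the use of strand were not given in the sources used here. Genes that overlap or share sequence may exchange reads. The FPKM were analysed as deposited, and groups came from the labels.

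The 29 genes and all gene lists and pairs were chosen with earlier results of these data known. limma 3.58.1 (R 4.3.3; lmFit and eBayes with trend) was fitted to log2(FPKM + 1), which understates changes of low genes, with 2-sided p-values adjusted over all genes tested at a threshold of 0.05. Tested were genes at 1 FPKM or more in at least 9 tumors (15360 genes), 3 neurosphere libraries (13190) or 3 of all libraries (16803). The tumors, the 4 culture groups and all 6 groups were fitted separately. Relative depth was recovered from the steps of low FPKM. Promoters came from a RefSeq table of GRCm38.p6. The code was tested on simulated data. Correlations used numpy 2.4.6 and scipy 1.17.1. Named in full were a fixed list of genes, the 3 further genes with the most positive and the 3 with the most negative tumor difference, any gene called, and up to 3 genes per other list.

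Deviations of K27M and WT-Tag cultures with the same experiment id correlated at 0.412, 0.152 and 0.438 in hindbrain. In forebrain these values were 0.443, -0.234 and 0.352. Cultures with unlike ids correlated at -0.345 to 0.094 in hindbrain and at -0.475 to 0.441 in forebrain. Only in hindbrain did each same-id value lie above every unlike-id value. With 3 ids per region this does not settle whether the id pairs the cultures. Alternatives were another pseudocount, no filter, quantile normalization, covariates, array weights, the replicate block, groups fitted alone and leaving out libraries. Relative depth as a covariate, leaving out the 3 tumors with the lowest level of the genes, and leaving out WT-Tag tumors 8 and 9 in the correlations and in tumors against cultures were chosen after seeing the data.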

Additional observations from a re-analysis of the deposited data

Results flagged for a closer look

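Ccl4 was at 9.46 FPKM in WT-Tag tumor 7, while the next highest of the 9 WT-Tag tumors was at 2.197 FPKM, a gap of 0.572 of the group's range on the log2 scale against a critical value of 0.493. This was 1 flag among 29 genes examined in that group, and chance flags about 1 in 20 groups. The same tumor had the highest mean level of the 29 genes. Without it the Ccl4 difference between tumor genotypes was 0.61 ± 0.22 (log2, SE) against 0.36 ± 0.26 with it, with an adjusted p of 0.541 by limma.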

How the results depend on the processing

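No tested gene of the set was called between tumor genotypes, between sexes or between forebrain cultures under any alternative run, and the hindbrain result depended on the setting. There 1 gene was called, against 0 without the filter, 0 with the 2 groups fitted alone, 2 with the replicate block and 0 to 2 on leaving out each replicate; the Spp1 change was then 1.01 to 1.62 and its adjusted p 0.00451 to 0.0944. In forebrain, where same-id cultures were not always the most alike, the replicate block gave 0 called. The tumor groups share no replicate numbers. Among all genes, tumors had 13 calls, 26 without the filter, 48 with array weights, 8 without WT-Tag tumors 8 and 9 and 8 to 18 on leaving out each tumor. Forebrain cultures had 47 calls, 106 under quantile normalization, 80 alone and 20 to 37 on leaving out each replicate. Hindbrain cultures had 1787 calls, 1045 without the filter, 286 alone and 554 to 4212 on leaving out each replicate. Under quantile normalization the share of calls that were higher moved from 53.8% to 43.8% in tumors, from 62.2% to 46.8% in hindbrain cultures, and from 55.6% to 44.3% and 62.3% to 42.6% in K27M and WT-Tag tumors against cultures, where the medians of all genes moved from 0.10 to -0.07 and from 0.16 to -0.06. WT-Tag tumors then had 26 genes of the set called, since Cd14 (0.67, adjusted p = 0.094) was not.

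Of the single values, 887 kept their direction and side of the threshold and 49 changed sign, nearly all of them tumor differences close to 0. Csf1r was -0.078 with array weights, -0.0038 with relative depth, -0.020 without the 3 lowest tumors and -0.079 to 0.093 on leaving out each tumor. Trem2 was -0.067 with array weights, -0.000094 at equal Csf1r, -0.0037 without the 3 lowest and -0.087 to 0.11 on leaving out each tumor. Mrc1 was 0.00593 with sex, 0.00296 at equal Csf1r, 0.049 with array weights, 0.055 without the 3 lowest and -0.052 to 0.037 on leaving out each tumor. C1qa was 0.00345 with the neuronal level, 0.00877 without WT-Tag tumors 8 and 9 and 0.10 with relative depth. Siglech was -0.046 with relative depth, and Cd14 -0.17 with array weights and -0.032 to 0.18 on leaving out each tumor. Cd68 ran from -0.13 to 0.063 in forebrain and from -0.018 to 0.30 in hindbrain cultures on leaving out each replicate. The r of Csf1r and Stmn2 was 0.000713 under quantile normalization, under which 5 of the 16 pairs passed. Without WT-Tag tumors 8 and 9, chosen for this after seeing the data, that of Csf1r and Mki67 was 0.00124, 6 pairs passed as before (Mrc1 with Cd163 in place of Ccr2 with Lyz2), and 27 genes were called in both tumor genotypes against cultures. The cause of these changes was not tested.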
